A study of Mus musculus with 8 samples.

Results

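Laminins are the proteins that start a basement membrane, the thin matrix sheet on which epithelia rest and which wraps muscle, fat, nerve and vascular cells. The 10 genes described here, of 30395 listed in the files, encode laminin chains (Lama2, Lama3, Lama4, Lama5, Lamb1, Lamb2, Lamb3 and Lamc1) and both nidogens (Nid1 and Nid2). They were taken by symbol, after the Ensembl identifiers of the files had been matched to the mouse annotation, and all 10 passed the filter on low values. The chains Lama1 and Lamc3 are given where a heterotrimer needs them.

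RNA was sequenced with SMART-Seq2, which amplifies whole cDNA by PCR, from mesenchymal cells sorted from digested mouse liver. The groups were Gli1+ cells taken 5 d after ligation of the bile duct (BDL), which blocks bile flow, Gli1+ cells from uninjured liver, stellate cells 5 d after BDL and stellate cells from uninjured liver, with 2 libraries each. The labels call the Gli1+ cells PBMCs, here peribiliary mesenchymal cells, which lie around the bile ducts; stellate cells are the vitamin A-storing pericytes of the sinusoids. All mice, the uninjured ones included, were 8 weeks old and of the strain Mixed (C57BL/6, SWR/J). All carried Gli1:CreER+/-; Ai9+/-, that is, a tamoxifen-dependent Cre expressed from the Gli1 locus and a red fluorescent reporter that Cre switches on. Not given in the sources used here are the sort gates and the time of induction. The labels number the libraries 1 and 2 but name no animals, so the p-values reflect only how far these libraries differ, which may be technical.

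Each laminin is a heterotrimer of an α, a β and a γ chain that coil together before they leave the cell. The α chain sets most of the receptor binding. Laminins with the α1, α2 or α5 chain carry the N-terminal domains through which laminins polymerise, and α4 lacks its own. The β3 chain is found with α3 in the laminin that anchors epithelia to hemidesmosomes. Nidogens bind the γ1 chain on one side and collagen IV on the other and so link both networks. Healthy sinusoids have no continuous basement membrane, whereas bile ducts rest on one.

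Depth was 11261775 to 19180370 reads per library, and 3 reads corresponded to 0.156 to 0.266 counts per 1000000 reads (CPM), the deposited unit. The labels held in the genes that name the populations. Gli1 stood at 6.61 and 2.39 CPM in Gli1+ cells after BDL and 14.9 and 7.59 CPM in uninjured Gli1+ cells, against 0.0584 and 0 CPM in stellate cells after BDL and 0 CPM in both uninjured stellate libraries. Lrat, the retinol-esterifying enzyme that defines stellate cells, ranged from 5.16 to 35.9 CPM in Gli1+ cells and from 1832 to 2784 CPM in stellate cells. The Gli1+ libraries also held RNA of epithelial and mesothelial markers. The summed CPM of 11 cholangiocyte markers was 9250.0 to 19601 in Gli1+ cells after BDL and 4118 to 5128 in uninjured Gli1+ cells, against 224 to 830 in stellate cells after BDL and 4.46 to 4.74 in uninjured stellate cells. For 8 mesothelial markers the sums were 2291 to 9302 over the Gli1+ libraries and 3.55 to 9.12 over the stellate libraries. The uninjured stellate libraries differed in macrophage RNA, with sums over 12 markers of 12464 in replicate 1 and 69.4 in replicate 2.

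The laminin chains of the populations differed in kind. Averaged over uninjured and BDL liver, 6 of the 10 genes differed between Gli1+ and stellate cells: Lama3, Lama4, Lama5, Lamb2 and Lamb3 were higher in Gli1+ cells, and Lamb1 was lower. Across all 16446 genes tested, 16.9% were called in that comparison, 12% higher and 4.91% lower. Calls are by limma-trend on log2(CPM + 1) with Benjamini-Hochberg (BH) adjusted p under 0.05 over all genes. The median log2 fold change was 0.92 over the 10 genes and 0.28 over all genes, and that of all genes was 0.13 after TMM scaling (a scaling of libraries to a shared set of genes). In bulk RNA of sorted cells, fewer cells of a type and less RNA per cell cannot be told apart. All 6 calls held in each of the 7 alternative fits and with each of the 8 libraries left out. Within 1 condition the comparison rests on 2 libraries against 2. In uninjured liver it called 5 of the 10 genes, 4 higher and 1 lower in Gli1+ cells, where 11.1% of all genes were called (8.06% higher and 3.02% lower). After BDL it called 4 of the 10, 3 higher and 1 lower, where 6.8% of all genes were called (4.44% higher and 2.36% lower). The libraries of the populations did not overlap for 6 of the 10 genes in uninjured liver, against 45.7% of all genes, and for 9 of the 10 after BDL, against 53.9%.

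Sequence just upstream of the gene start is shown for Lama5 and Lamb2, which were higher in Gli1+ cells, and for Lamb1, which was lower, because these chains differed in opposite directions between the populations. The bases are those of RefSeq on GRCm38.p6, written 5′ to 3′ on the strand of the gene, and they end before the first annotated exon of GENCODE vM21. Capitals mark GC boxes, the letters GGGCGG or, on the other strand, CCGCCC. The stretches are chr2:180225860-180226109 on the minus strand for Lama5, chr9:108479612-108479735 on the plus strand for Lamb2 and chr12:31265043-31265233 on the plus strand for Lamb1.
Lama5: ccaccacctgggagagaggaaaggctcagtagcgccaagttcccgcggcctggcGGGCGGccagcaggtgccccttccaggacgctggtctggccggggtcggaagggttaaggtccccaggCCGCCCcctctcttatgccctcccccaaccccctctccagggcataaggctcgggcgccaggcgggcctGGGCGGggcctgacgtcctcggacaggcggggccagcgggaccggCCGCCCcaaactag
Lamb2: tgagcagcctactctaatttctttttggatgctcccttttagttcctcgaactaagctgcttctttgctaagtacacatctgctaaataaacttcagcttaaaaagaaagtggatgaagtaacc
Lamb1: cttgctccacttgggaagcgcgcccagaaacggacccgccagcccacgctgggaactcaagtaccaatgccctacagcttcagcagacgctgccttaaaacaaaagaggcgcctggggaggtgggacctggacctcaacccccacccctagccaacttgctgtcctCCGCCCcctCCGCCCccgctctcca
In the whole window of 250 bases before the RefSeq start, Lama5 held 4 GC boxes, Lamb1 held 2 and Lamb2 held 0, and 32.7% of 32817 mouse promoter windows of that length held at least 1. The share of G and C bases in these windows was 72.4% for Lama5, 43.6% for Lamb2 and 62.0% for Lamb1. Neither the TATA box letters TATAAA nor the AP-1 letters TGANTCA, searched on both strands, were found in the 3 windows. They occurred in 12.4% and 6.75% of all windows.

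Of the α chains, Lama3, Lama4 and Lama5 were higher in Gli1+ cells over both conditions and Lama2 was not called. Lama4 (chromosome 10, 38965515 to 39110188 on GRCm38, as for all coordinates here), whose chain is found in vascular, muscle and fat basement membranes, had 112 and 65.2 CPM in Gli1+ cells after BDL and 108 and 71.5 CPM in uninjured Gli1+ cells. In stellate cells it had 14.5 and 29.4 CPM after BDL and 0.122 and 2.14 CPM without injury, the lowest of these values resting on 2 reads. All 4 Gli1+ libraries lay above all 4 stellate libraries. The log2 fold change of Lama4 in Gli1+ over stellate cells was 3.78 ± 0.48 (SE) over both conditions (limma, BH-adjusted p = 0.00103). In uninjured liver it was 5.56 ± 0.67 (adjusted p = 0.00169), and this call held with each library left out. After BDL it was 1.996 ± 0.67 (adjusted p = 0.132) and was not called, although the libraries did not overlap. Without replicate 1 of uninjured stellate cells, the BDL value had an adjusted p of 0.0463, and with only the 4 BDL libraries fitted one of 0.0405.

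Lama5 (chromosome 2, 180176373 to 180225859, minus strand) encodes the main α chain of most epithelial and many vascular basement membranes. It had 149 and 121 CPM in Gli1+ cells after BDL and 115 and 249.7 CPM in uninjured Gli1+ cells, against 56.3 and 35.2 CPM in stellate cells after BDL and 10.46 and 32.0 CPM in uninjured stellate cells. Again the Gli1+ libraries were higher with no overlap. Over both conditions the log2 fold change was 2.35 ± 0.41 (limma, BH-adjusted p = 0.00523) and 3.13 ± 0.58 in uninjured liver (adjusted p = 0.0113). The uninjured call was lost without replicate 2 of uninjured Gli1+ cells, the library with the highest Lama5 level (adjusted p = 0.0759), without the filter on low values (adjusted p = 0.0576) and with only the 4 uninjured libraries fitted (adjusted p = 0.0703). After BDL the log2 fold change was 1.57 ± 0.58 (adjusted p = 0.171, or 0.0317 with only the 4 BDL libraries fitted).

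Lama3 encodes the epithelial α3 chain and lies on chromosome 18 (12333819 to 12583013). It stood at 30.5 and 20.8 CPM in Gli1+ cells after BDL and at 7.01 and 2.34 CPM in uninjured Gli1+ cells. The stellate libraries held 8 and 2 reads after BDL (0.467 and 0.170 CPM) and 0 and 3 reads without injury (0 and 0.156 CPM). The groups did not overlap in either condition. On the scale of log2(CPM + 1) the fold change was 3.29 ± 0.54 over both conditions (limma, BH-adjusted p = 0.00371) and 4.32 ± 0.76 after BDL (adjusted p = 0.0122), and 2.27 ± 0.76 in uninjured liver (adjusted p = 0.0994). The uninjured value was called with a pseudocount of 0.1 (adjusted p = 0.0496) and by DESeq2 (adjusted p = 0.00147). With 3 reads in uninjured stellate cells, the ratio of CPM there was 49.4 (exact 95% interval 16.5 to 243, counting error only).

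Lama2 (chromosome 10, 26980036 to 27619758, minus strand), the α chain of muscle and Schwann cell basement membranes, did not part the populations. Its values were 23.0 and 54.1 CPM in Gli1+ cells after BDL, 138 and 43.4 CPM in uninjured Gli1+ cells, 46.1 and 92.1 CPM in stellate cells after BDL and 24.7 and 44.2 CPM in uninjured stellate cells. The ranges of Gli1+ and stellate cells overlapped after BDL and in uninjured liver. The log2 fold change over both conditions was 0.17 ± 0.48 (limma, BH-adjusted p = 0.855), and its sign changed in 4 of the 8 fits that left out a library and in 1 of the 7 other alternatives.

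On the scale of log2(CPM + 1), the largest log2 fold change over both conditions among the 10 members, Lama1 and Lamc3 was that of Lama1. This rank depended on the fit: over the 7 alternative fits the values reached 7.38 for Lamb3, 8.31 for Lamc3 and -6.61 for Lama1. Lama1 (chromosome 17, 67697259 to 67822647) encodes the α1 chain of embryonic and some epithelial basement membranes. Gli1+ cells had 8.46 and 5.81 CPM after BDL and 7.10 and 0.228 CPM without injury, whereas stellate cells had 341 and 334 CPM after BDL and 314 and 301 CPM without injury. Each stellate library was above each Gli1+ library. The log2 fold change of Gli1+ over stellate cells was -6.00 ± 0.54 over both conditions (limma, BH-adjusted p = 0.000198), and the call held in all 7 alternative fits and all 8 fits that left out a library.

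**Figure D1:**
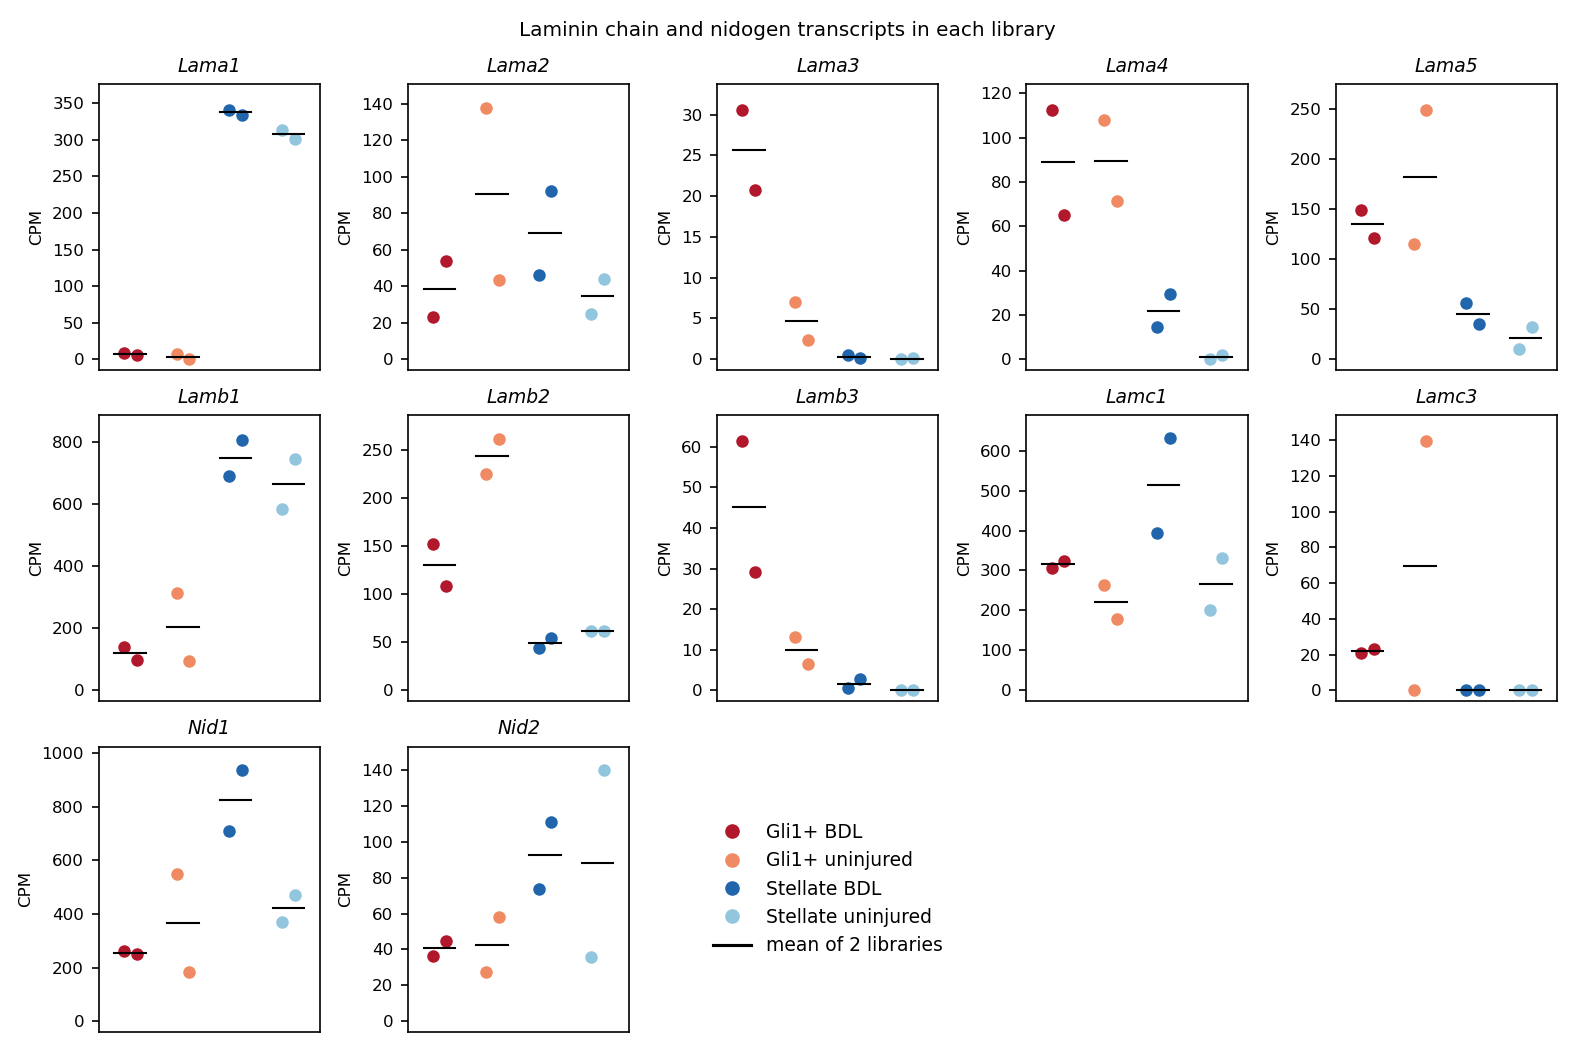
CPM of the 12 laminin and nidogen genes in the 8 libraries, by group, on a linear CPM axis of its own for each gene. Each point is 1 library and each bar the mean of 2; Lama4, Lama5, Lamb2, Lama3 and Lamb3 are higher in all 4 Gli1+ libraries than in all 4 stellate libraries, and Lamb1 and Lama1 are lower.

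The β1 and β2 chains differed in opposite directions. Lamb1 (chromosome 12, 31265234 to 31329644) encodes β1, the most widespread β chain. It had 141 and 97.5 CPM in Gli1+ cells after BDL and 314 and 93.9 CPM in uninjured Gli1+ cells, against 689 and 808 CPM in stellate cells after BDL and 585 and 745 CPM in uninjured stellate cells. Every stellate library was higher than every Gli1+ library, and the uninjured Gli1+ libraries differed more from each other than those of any other group. Gli1+ over stellate cells, the log2 fold change was -2.30 ± 0.37 over both conditions (limma, BH-adjusted p = 0.00335), -2.66 ± 0.52 after BDL (adjusted p = 0.0185) and -1.94 ± 0.52 in uninjured liver (adjusted p = 0.0466). The uninjured call was lost in 7 of the 8 fits that left out a library (adjusted p 0.0678 to 0.149) and was kept only without replicate 1 of uninjured Gli1+ cells.

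Lamb2 (chromosome 9, 108479736 to 108490530) encodes β2, the chain of the neuromuscular junction, the kidney filter and arterial smooth muscle. Gli1+ cells had 153 and 108 CPM after BDL and 225 and 261 CPM without injury. Stellate cells had 44.3 and 53.9 CPM after BDL and 61.5 and 61.6 CPM without injury. The Gli1+ libraries were higher with no overlap, by a log2 fold change of 1.67 ± 0.23 over both conditions (limma, BH-adjusted p = 0.00164), 1.96 ± 0.33 in uninjured liver (adjusted p = 0.00685) and 1.38 ± 0.33 after BDL (adjusted p = 0.0402). The uninjured call held with each library left out. The BDL call was lost in 4 of 8 alternative fits, namely after TMM scaling (log2 fold change 1.22, adjusted p = 0.0605), without the filter on low values (adjusted p = 0.0644), by edgeR (adjusted p = 0.101) and with the replicate number as a block (adjusted p = 0.0708).

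Per kb of exon, so that the genes can be set side by side, the level of Lamb2 was 1.77 and 1.81 times that of Lamb1 in Gli1+ cells after BDL and 1.17 and 4.54 times in uninjured Gli1+ cells. In stellate cells the ratio was 0.105 and 0.109 after BDL and 0.172 and 0.135 without injury. Lamb1 made up 89.8% to 90.4% of the summed β chain level in stellate cells after BDL and 85.4% to 88.1% in uninjured stellate cells, whereas in Gli1+ cells its share was 29.2% and 30.6% after BDL and 44.8% and 17.7% without injury. Divided by coding length in place of exon length, the share of Lamb1 in replicate 1 of uninjured Gli1+ cells was 55.6% against 40.7% for Lamb2, so which β chain led in that library depended on the length used. In the other 3 Gli1+ libraries Lamb2 led by either length.

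Lamb3 (chromosome 1, 193207699 to 193343878), the epithelial β3 chain, had 61.4 and 29.2 CPM in Gli1+ cells after BDL and 13.1 and 6.56 CPM in uninjured Gli1+ cells. It had 0.525 and 2.72 CPM in stellate cells after BDL, and no read in either uninjured stellate library. The Gli1+ libraries were higher with no overlap. Lamb3 had a log2 fold change of 3.78 ± 0.60 over both conditions (limma, BH-adjusted p = 0.00338), 4.19 ± 0.85 after BDL (adjusted p = 0.0217) and 3.37 ± 0.85 in uninjured liver (adjusted p = 0.0381). The uninjured call was lost in each of the 8 fits that left out a library (adjusted p 0.0532 to 0.141). Counted against a floor of 3 reads over the uninjured stellate group, Lamb3 was at least 108-fold higher in uninjured Gli1+ cells.

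After BDL, all 4 calls of the 2-against-2 comparison, Lama3, Lamb2 and Lamb3 higher and Lamb1 lower in Gli1+ cells, were lost without any 1 of the 4 BDL libraries, which leaves a group with a single library that is assumed to vary like the others. The adjusted p in those fits ranged from 0.0554 to 0.118 for Lama3, from 0.104 to 0.144 for Lamb1, from 0.0935 to 0.267 for Lamb2 and from 0.0756 to 0.198 for Lamb3. For Lamb2 the BDL call was also lost without replicate 1 (adjusted p = 0.0523) or replicate 2 (adjusted p = 0.0534) of uninjured Gli1+ cells. The 8 alternative fits that kept all libraries of a comparison moved these calls as well. After BDL the call held in 7 of them for Lamb1, 6 for Lama3, 5 for Lamb3 and 4 for Lamb2. In uninjured liver it held in all 8 for Lama4 and Lamb2, 6 for Lama5, 4 for Lamb3 and 3 for Lamb1.

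Lamc1 (chromosome 1, 153218922 to 153332786, minus strand), the γ1 chain that most laminins share, was abundant in each group. Its values were 307 and 325 CPM in Gli1+ cells after BDL, 263 and 179 CPM in uninjured Gli1+ cells, 394 and 633 CPM in stellate cells after BDL and 201 and 331 CPM in uninjured stellate cells. In uninjured liver the populations overlapped, and after BDL both Gli1+ libraries lay below both stellate libraries. For Lamc1 the log2 fold change over both conditions was -0.45 ± 0.27 (limma, BH-adjusted p = 0.299), and it was negative in all 15 alternative fits.

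Lamc3, the γ3 chain of nerve and some vascular basement membranes, had 20.6 and 23.2 CPM in Gli1+ cells after BDL, but 0 and 139 CPM in the uninjured Gli1+ libraries, and at most 0.170 CPM in any stellate library. With so wide a gap between uninjured replicates, Lamc3 was not called (limma, log2 fold change 3.89 ± 1.31 over both conditions, BH-adjusted p = 0.0799). It was called without replicate 1 (5.67, adjusted p = 0.00172) and without replicate 2 (2.11, adjusted p = 0.0160) of uninjured Gli1+ cells. The fits to recovered reads called it with all libraries as well, edgeR with an adjusted p of 0.0310 and DESeq2 with one of 6.06e-08.

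**Figure D2:**
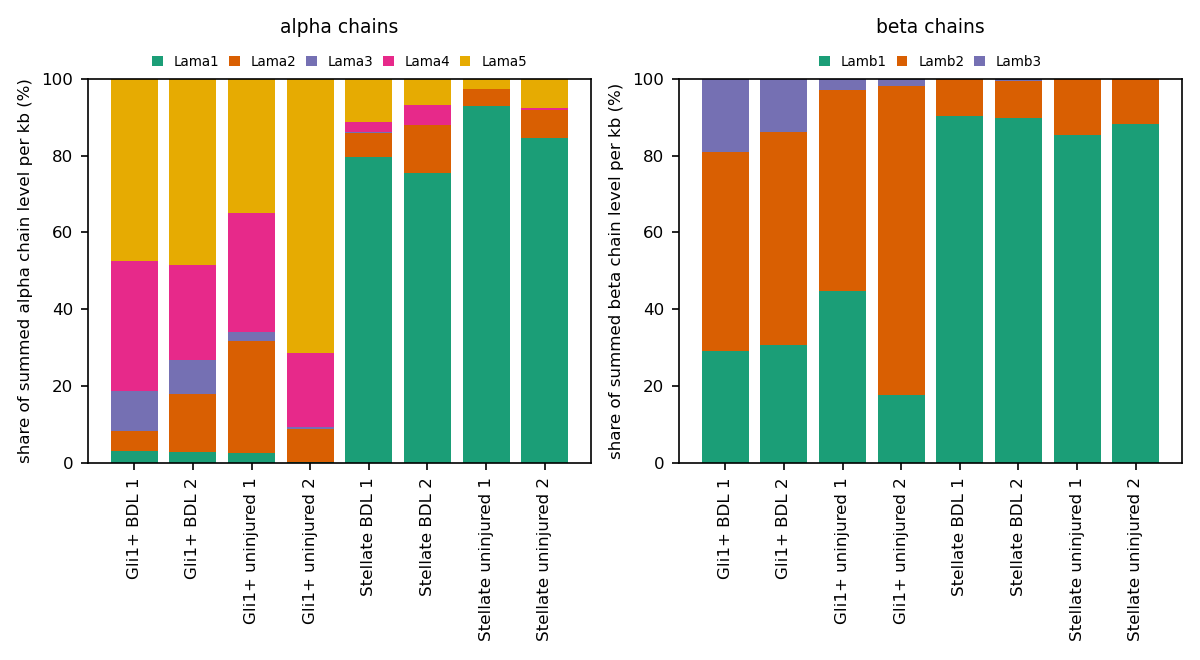
Share of each α and β chain in the summed level of its class, in percent, with levels as CPM per kb of exon, for each of the 8 libraries. Lama1 fills 75.6% to 93.0% of the α chain level in stellate cells, where Lamb1 fills 85.4% to 90.4% of the β level; Gli1+ cells have several α chains.

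Per kb of exon, the α chain level of stellate cells was mostly Lama1, at 79.6% and 75.6% after BDL and 93.0% and 84.5% without injury, and the share in Gli1+ cells was 3.18% at most. In Gli1+ cells Lama5 held 47.5% and 48.6% after BDL and 35.0% and 71.3% without injury, followed by Lama4 with 33.9% and 24.7% after BDL and 31.0% and 19.3% without injury. By coding length the order of these turned in 3 of the 4 Gli1+ libraries. After BDL Lama4 then held 51.1% and 38.2% and Lama5 33.0% and 34.7%, and in replicate 1 of uninjured Gli1+ cells Lama4 held 42.8% and Lama5 22.3%. Lama2 held 4.34% to 29.2% over the 8 libraries.

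Of 13 heterotrimers considered, the number for which RNA of all 3 chains reached 1 CPM per kb of exon in both libraries was 11 in Gli1+ cells after BDL, 6 in uninjured Gli1+ cells, 8 in stellate cells after BDL and 4 in uninjured stellate cells. RNA of each chain does not show that the trimer is made. In bulk RNA it also does not show that all 3 chains come from the same cells. The Gli1+ libraries held cholangiocyte and mesothelial RNA as well. In Gli1+ cells after BDL only the 2 trimers with α1, α1β1γ1 and α1β2γ1, fell short. The trimers that passed in the uninjured Gli1+ libraries were those of α2, α4 and α5, each with β1 or β2 and γ1. In the stellate libraries after BDL they were those of α1, α2, α4 and α5 with the same β and γ chains. In the uninjured stellate libraries they were those of α1 and α2 alone.

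In stellate cells the lowest chain of α1β1γ1 stood at 35.2 and 34.5 CPM per kb after BDL and at 24.3 and 31.1 CPM per kb without injury. In Gli1+ cells that trimer was limited by Lama1, at 0.874 and 0.600 CPM per kb after BDL and 0.734 and 0.0236 CPM per kb without injury. The trimer α5β2γ1 had its lowest chain at 13.1 and 10.6 CPM per kb in Gli1+ cells after BDL and 10.1 and 21.7 CPM per kb in uninjured Gli1+ cells, against 4.94 and 3.09 CPM per kb in stellate cells after BDL and 0.918 and 2.81 CPM per kb in uninjured stellate cells. These are levels set side by side, and no test was made on them.

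For trimers with α4 the lowest chain was Lama4 itself in all 8 libraries when the partners were β1 and γ1. It stood at 9.32 and 5.40 CPM per kb in Gli1+ cells after BDL and 8.93 and 5.92 CPM per kb in uninjured Gli1+ cells, but at 1.20 and 2.44 CPM per kb in stellate cells after BDL and 0.0101 and 0.177 CPM per kb in uninjured stellate cells. Stellate cells therefore passed 1 CPM per kb for Lama4 in the BDL libraries and not in the uninjured ones. For α5 in uninjured stellate cells the library that fell short was replicate 1, at 0.918 CPM per kb, and without it those cells held 6 trimers. Without replicate 1 of uninjured Gli1+ cells, where Lamc3 was at 0, that group held 9.

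At a threshold of 5 CPM per kb, 4 trimers were left in Gli1+ cells after BDL and 4 in uninjured Gli1+ cells, in both cases α4 and α5 with β1 or β2 and γ1. At the same threshold 2 trimers were left in stellate cells after BDL and 2 in uninjured stellate cells, in both cases α1β1γ1 and α1β2γ1. The sets that passed this threshold in Gli1+ and in stellate cells thus shared no trimer, in uninjured liver or after BDL. At 0.2 CPM per kb the counts were 13 in Gli1+ cells after BDL, 8 in uninjured Gli1+ cells, 8 in stellate cells after BDL and 6 in uninjured stellate cells, and by coding length they were the same as by exon length.

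**Figure D3:**
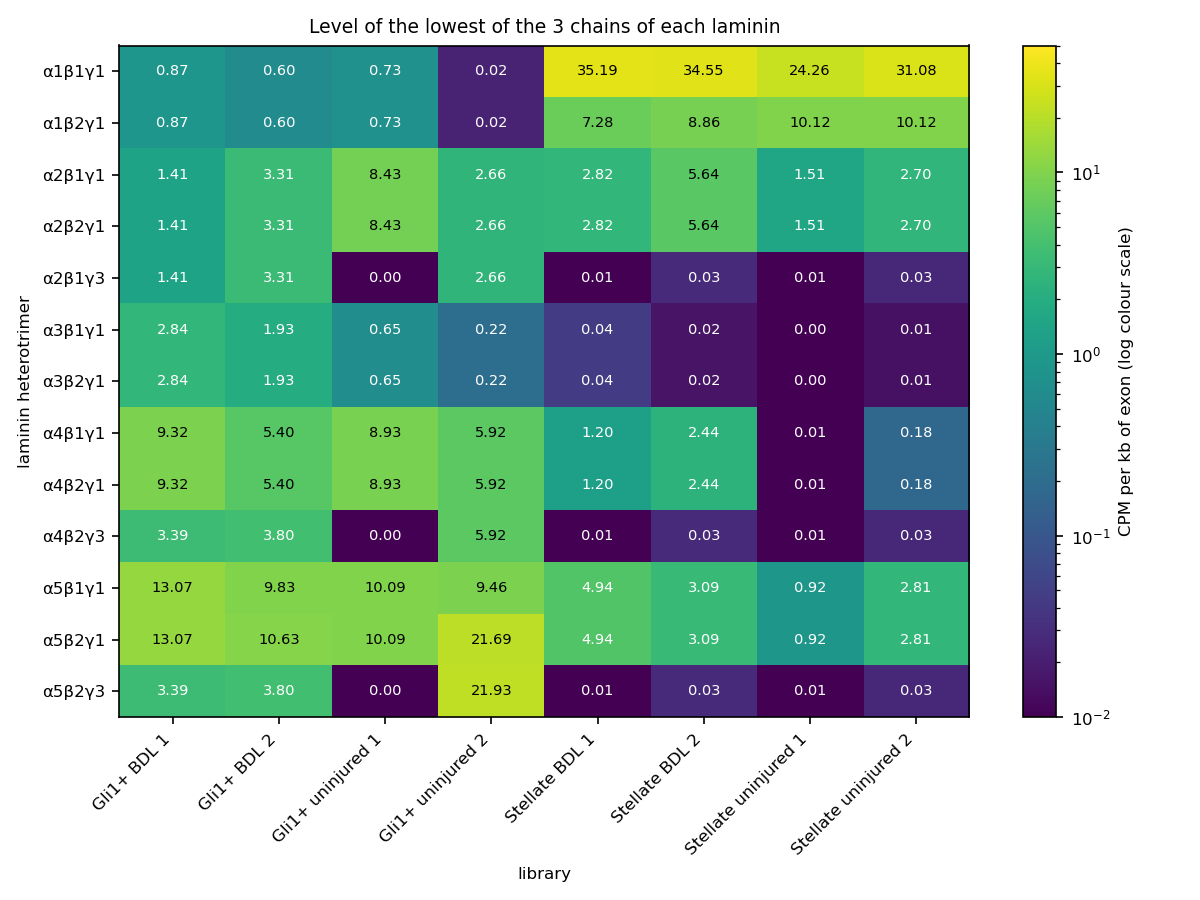
Level of the lowest of the 3 chains of each of 13 laminin heterotrimers, in CPM per kb of exon on a log colour scale, in the 8 libraries. The rows with α1 are brightest in stellate cells (7.28 to 35.2 CPM per kb) and at most 0.874 CPM per kb in Gli1+ cells, and the rows with α4 and γ1 are at most 0.177 CPM per kb in uninjured stellate cells.

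Both nidogens were present in each group and neither was called in any comparison. Nid1 (chromosome 13, 13437551 to 13512269) had 260.4 and 251 CPM in Gli1+ cells after BDL, 550.2 and 182 CPM in uninjured Gli1+ cells, 710.0 and 938 CPM in stellate cells after BDL and 372 and 470.1 CPM in uninjured stellate cells. After BDL both Gli1+ libraries lay below both stellate libraries, while the uninjured groups overlapped. The log2 fold change of Nid1 in Gli1+ over stellate cells was -1.67 ± 0.48 after BDL (limma, BH-adjusted p = 0.0810) and -1.04 ± 0.34 over both conditions (adjusted p = 0.0734). The value after BDL was called by DESeq2 (adjusted p = 0.0116), with only the 4 BDL libraries fitted (adjusted p = 0.0145) and without either uninjured Gli1+ library (adjusted p = 0.0199 and 0.0207). The value over both conditions was called by DESeq2 (adjusted p = 0.0204), after TMM scaling (adjusted p = 0.0401) and without replicate 1 of uninjured Gli1+ cells (-1.43, adjusted p = 0.00970).

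Nid2 (chromosome 14, 19751265 to 19811787) had 36.2 and 44.96 CPM in Gli1+ cells after BDL, 27.3 and 58.1 CPM in uninjured Gli1+ cells, 73.7 and 111 CPM in stellate cells after BDL and 35.7 and 140.1 CPM in uninjured stellate cells. Its Gli1+ libraries were lower than the stellate ones after BDL and overlapped them in uninjured liver. Over both conditions its log2 fold change was -0.98 ± 0.46 (limma, BH-adjusted p = 0.193), and it was called without replicate 1 of uninjured stellate cells (-1.47, adjusted p = 0.0209). Per kb of exon, Nid1 made up 70.0% to 93.8% of the nidogen level in the 8 libraries. The level of Nid1 was 1.01 and 0.920 times that of its ligand Lamc1 per kb in Gli1+ cells after BDL and 2.496 and 1.21 times in uninjured Gli1+ cells, against 2.15 and 1.77 times in stellate cells after BDL and 2.21 and 1.69 times in uninjured stellate cells.

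The order of the 10 genes per kb of exon also differed. In stellate cells after BDL, Nid1 led at 119 ± 23.2 CPM per kb (SD, n = 2), followed by Lamb1 at 75.5 ± 8.45 and Lamc1 at 62.1 ± 20.4. In uninjured stellate cells, Lamb1 at 67.0 ± 11.4 and Nid1 at 60.6 ± 10.01 were neighbours within their spread, with Lamc1 at 32.2 ± 11.2. In Gli1+ cells after BDL, Lamc1 at 38.2 ± 1.46 and Nid1 at 36.8 ± 0.995 were likewise within their spread, and Lamb2 followed at 21.5 ± 5.13. In uninjured Gli1+ cells, Nid1 at 52.7 ± 37.5 and Lamb2 at 40.0 ± 4.18 were within the spread, as were Lamc1 at 26.7 ± 7.11, Lamb1 at 20.6 ± 15.7 and Lama5 at 16.01 ± 8.37.

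**Figure D4:**
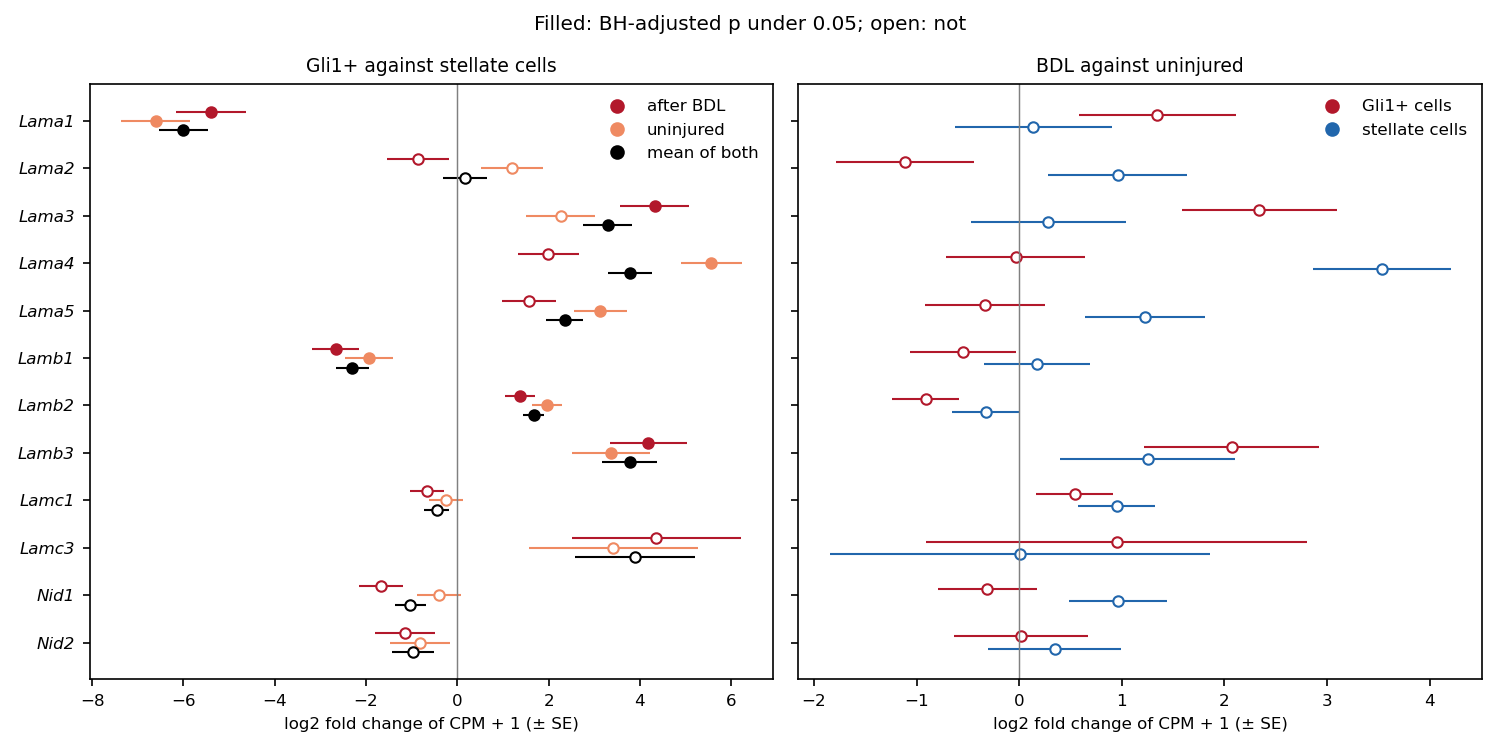
Log2 fold changes of CPM + 1 with their SE for the 12 genes, Gli1+ against stellate cells (left) and BDL against uninjured (right), with filled points for BH-adjusted p under 0.05. Over both conditions Lama4 is at 3.78 and Lamb1 at -2.30, and on the right no point is filled.

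The effect of BDL was asked within each population. Hepatocyte RNA moved with BDL in both: 10 hepatocyte markers summed to 3132 and 16915 CPM after BDL and 1386 and 342 CPM without injury in Gli1+ cells, and to 1758 and 2030 CPM after BDL and 350 and 215 CPM without injury in stellate cells. Replicate 2 of Gli1+ cells after BDL, with the highest sum, also had the highest mitochondrial share, 5.72% of reads against 0.808% to 3.51% in the other 7 libraries. The part of hepatocyte RNA in the BDL responses was not tested. In Gli1+ cells 0 of the 10 genes were called by limma, as were 0 of all 16446 genes (0% called, 1812 genes at an unadjusted p under 0.05, 0 genes by edgeR and 406 by DESeq2). Of the 10, Lama3, Lamb2 and Lamb3 had an unadjusted p under 0.05. Their log2 fold changes of BDL over uninjured Gli1+ cells were 2.34 ± 0.76 for Lama3 (limma, BH-adjusted p = 0.258), -0.91 ± 0.33 for Lamb2 (adjusted p = 0.318) and 2.07 ± 0.85 for Lamb3 (adjusted p = 0.406). The BDL libraries lay above both uninjured libraries for Lama3, Lamb3 and Lamc1 and below both for Lamb2, which makes 4 of 10 genes without overlap, against 41.3% of all genes tested. Lama4 was nearly level in Gli1+ cells, at a mean of 88.8 ± 33.4 CPM after BDL and 89.6 ± 25.7 CPM without injury (SD, n = 2).

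In stellate cells 0 of the 10 were called by limma, while 37 genes (0.225%) were called among all tested. Lama4 came closest, at 14.5 and 29.4 CPM after BDL against 0.122 and 2.14 CPM in uninjured stellate cells. The BDL libraries were higher with no overlap, by a log2 fold change of 3.53 ± 0.67 (unadjusted p = 0.000611, BH-adjusted p = 0.0992 by limma). DESeq2 called Lama4 (adjusted p = 0.00152), and so did limma without replicate 2 of uninjured stellate cells (4.28, adjusted p = 0.0282). DESeq2 also called Lamb3 (adjusted p = 0.00338), which had 9 and 32 reads after BDL and none in uninjured stellate cells, at least a 16.8-fold difference against a floor of 3 reads over the group.

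The other 8 genes in stellate cells had adjusted p of 0.357 or more. Lama3, with 10 reads after BDL and 3 without injury, had a ratio of CPM of 4.10 (exact 95% interval 1.06 to 23.2). Lamc1 had a log2 fold change of 0.95 ± 0.38 (limma, unadjusted p = 0.0340, BH-adjusted p = 0.357), and Nid1 of 0.96 ± 0.48 (adjusted p = 0.483). For Lama2 and Lama5 the values were 0.96 ± 0.67 (adjusted p = 0.646) and 1.23 ± 0.58 (adjusted p = 0.460). Lamb1, Lamb2 and Nid2 stood at 0.18 ± 0.52, -0.33 ± 0.33 and 0.35 ± 0.65, with adjusted p of 0.766 or more. The BDL libraries lay above both uninjured libraries for 7 of the 10 genes and below both for Lamb2, so 8 of 10 did not overlap, against 39.6% of all genes tested. Among the 7 was Lama3, with 8 and 2 reads after BDL and 0 and 3 reads without injury. Its lower BDL value, 0.170 CPM from 2 reads, exceeded 0.156 CPM from 3 reads only through lower depth. The median log2 fold change of the 10 genes was 0.95 in stellate cells and -0.17 in Gli1+ cells, beside 0.19 and 0.12 over all genes.

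The difference between the BDL responses, Gli1+ minus stellate, was called for 0 of the 10 genes and for 0.0122% of all genes. Lama4 had the largest value among the 10, -3.57 ± 0.95 (limma, unadjusted p = 0.00494, BH-adjusted p = 0.421). So its response in stellate cells was not shown to differ from that in Gli1+ cells at this threshold. Among the rest of the 10, Lama2 at -2.07 ± 0.95 and Lama3 at 2.06 ± 1.07 had the largest values, with adjusted p of 0.680 and 0.726.

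The epithelial chains were measured in libraries that also held cholangiocyte RNA. For Lamb3 the Gli1+ values of 61.4 and 29.2 CPM after BDL and 13.1 and 6.56 CPM without injury stood in the same order as the cholangiocyte marker sums of 19601 and 9250.0 CPM after BDL and 5128 and 4118 CPM without injury. Lama3 followed the same order. That order of the sums rests on Spp1 (osteopontin), the marker of highest mean level, at 10259 and 5167 CPM after BDL and 2140 and 259 CPM without injury. The other 10 markers summed to 9342 and 4083 CPM after BDL and 2988 and 3859 CPM in replicates 1 and 2 without injury, so the uninjured order turned, while Lamb3 and Lama3 were higher in replicate 1. Sums without the highest marker of a list were added after the sums had been seen. Replicate 2 of uninjured Gli1+ cells had the higher mesothelial marker sum, 9302 CPM against 3010 CPM in replicate 1, the highest Lama5 value and the only Lamc3 value over 100 CPM. In uninjured stellate cells the cholangiocyte markers Cldn4 and Elf3 were at 0 in both libraries, and Lamb3 was at 0 as well. After BDL the stellate libraries had cholangiocyte sums of 224 and 830 CPM with Lamb3 at 0.525 and 2.72 CPM. Spp1 made up 177 and 743 CPM of these sums. The other 10 markers summed to 46.5 and 86.6 CPM, with the keratin gene Krt19 at 0.934 and 2.29 CPM, Epcam at 0.467 and 1.10 CPM and Cldn4 at 0. The part of cholangiocyte and mesothelial RNA in the levels of Lama3, Lamb3, Lama5 and Lamc3 was not tested.

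**Figure D5:**
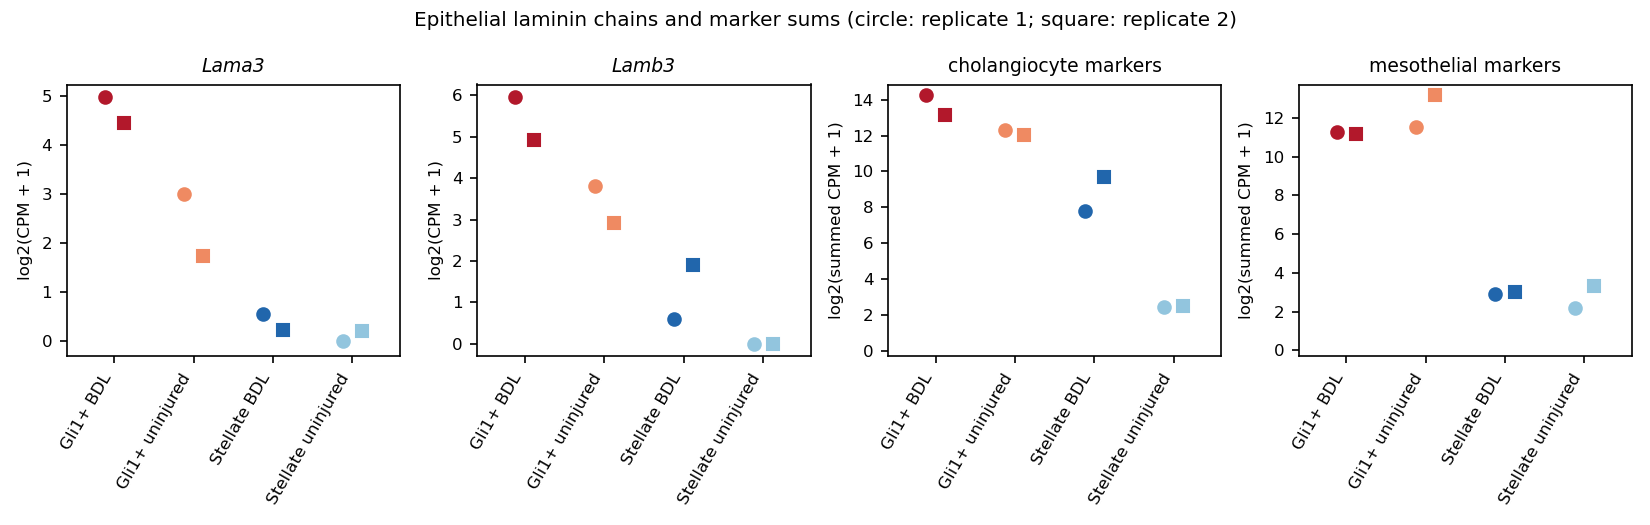
Log2(CPM + 1) of Lama3 and Lamb3 and log2 of the summed CPM + 1 of 11 cholangiocyte and 8 mesothelial markers, by group, with a circle for replicate 1 and a square for replicate 2. All 4 are higher in the 4 Gli1+ libraries than in the 4 stellate libraries, with cholangiocyte sums of 4118 to 19601 CPM in Gli1+ cells and 4.46 to 830 CPM in stellate cells.

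Other marker sums were set beside the levels of other chains, and they did not always stand in the same order. Endothelial markers, 14 genes in all, summed to 960.4 and 1686 CPM in the BDL libraries of Gli1+ cells and 1185 and 248 CPM in their uninjured ones, against 2921 and 2190 CPM in stellate cells after BDL and 707 and 185 CPM without injury. Endothelial cells are a known source of Lama4, and in stellate cells both Lama4 and the endothelial sum were higher after BDL. In uninjured stellate cells, however, the library with the higher endothelial sum, replicate 1 with 707 CPM, had the lower Lama4 level, 0.122 CPM. Portal fibroblast markers in stellate cells summed to 1095 and 2023 CPM after BDL and 303 and 537 CPM without injury, in the same order as Lama4 in these 4 libraries. Col1a1, the α1 chain of collagen I, carried this order, with 989 and 1835 CPM after BDL and 187 and 345 CPM without injury. The other 11 portal fibroblast markers summed to 106 and 188 CPM after BDL and 116 and 192 CPM without injury, and these groups overlapped. Smooth muscle markers summed to 547 and 930 CPM after BDL and 369 and 694 CPM without injury in stellate cells. In Gli1+ cells they summed to 1150 and 1297 CPM after BDL and 1159 and 1395 CPM without injury. Acta2, the smooth muscle marker of highest mean level, carried this difference between the populations. The other 7 summed to 389 and 457 CPM after BDL and 652 and 618 CPM without injury in Gli1+ cells. In stellate cells they summed to 419 and 581 CPM after BDL and 358 and 678 CPM without injury, so the populations overlapped. The part of endothelial, portal fibroblast or smooth muscle RNA in the Lama4 and Lamb2 values was not tested.

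The cell surface receptors of laminins differed between the populations too. Of 11 receptor genes, 5 were higher and 2 lower in Gli1+ than in stellate cells over both conditions, with a median log2 fold change of 1.37. Over all genes tested, 12% were higher, 4.91% lower and the median was 0.28. The β4 integrin subunit Itgb4, which binds laminin in hemidesmosomes together with α6, had 110.3 and 77.6 CPM in Gli1+ cells after BDL, 27.6 and 63.7 CPM in uninjured Gli1+ cells and at most 0.425 CPM in any stellate library. Its log2 fold change was 5.80 ± 0.54 (limma, BH-adjusted p = 0.000219). Bcam, the Lutheran receptor of the α5 chain, was higher by 4.56 ± 0.38 (adjusted p = 0.000139), Itga6, the integrin partner of Itgb4, by 3.65 ± 0.53 (adjusted p = 0.00219), Itga7 by 3.55 ± 0.81 (adjusted p = 0.0187) and Itga3 by 2.87 ± 0.35 (adjusted p = 0.000868). The Itga7 call was lost without any 1 of the 4 BDL libraries (adjusted p 0.0530 to 0.0812). In uninjured Gli1+ cells Itga7 had 7.10 CPM in replicate 1 and 94.0 CPM in replicate 2, the library with the mesothelial marker sum of 9302 CPM. Itgb4 and Itga6 were highest in the BDL libraries of Gli1+ cells, where the cholangiocyte sums were highest too, with Itga6 at 63.7 and 64.3 CPM after BDL and 5.86 and 10.56 CPM without injury. The part of cholangiocyte and mesothelial RNA in these receptor levels was not tested.

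Lower in Gli1+ cells were Itga1 and Itgb1, the subunits of α1β1 integrin, which binds collagen IV and laminin. Itga1 had 32.6 and 84.4 CPM in Gli1+ cells after BDL and 45.2 and 47.2 CPM in uninjured Gli1+ cells, against 467 and 513 CPM in stellate cells after BDL and 344 and 612 CPM in uninjured stellate cells. The libraries did not overlap, and the log2 fold change was -3.24 ± 0.33 (limma, BH-adjusted p = 0.000374). For Itgb1 it was -1.14 ± 0.22 (adjusted p = 0.00831). Dag1, which encodes dystroglycan, a receptor of the α1 and α2 chains, had a log2 fold change of 0.13 ± 0.31 (adjusted p = 0.826). In uninjured liver 5 receptors were higher and 2 lower, where 8.06% of all genes were higher and 3.02% lower. After BDL 4 receptors were higher and 1 lower, where 4.44% of all genes were higher and 2.36% lower. With a library left out, the uninjured count was 3 to 4 higher and 1 to 2 lower. Without any 1 of the 4 BDL libraries, the count after BDL was 0 to 1 higher and 0 to 1 lower.

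Among 10 enzymes that put laminin-binding sugars on dystroglycan, 1 was higher and 0 lower in Gli1+ cells over both conditions. This is near the share of all genes tested, 12% higher and 4.91% lower, so the list as a whole did not stand out. Large2, which extends the matriglycan chain that laminin binds, was higher by a log2 fold change of 3.14 ± 0.46 (limma, BH-adjusted p = 0.00219). The part of cholangiocyte and mesothelial RNA in the Large2 level was not tested.

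Of 18 other basement membrane genes, 9 were higher and 5 lower in Gli1+ than in stellate cells over both conditions. Among all genes tested, 12% were higher and 4.91% lower. The fibulin gene Fbln1 was higher by a log2 fold change of 6.37 ± 0.50 (limma, BH-adjusted p = 0.000101), the collagen IV chains Col4a5 and Col4a6 by 5.13 ± 0.50 (adjusted p = 0.000289) and 4.45 ± 0.98 (adjusted p = 0.0155), and Col18a1 by 4.26 ± 0.68 (adjusted p = 0.00331). Lower were the netrin gene Ntn1, which is built of laminin-type domains (-3.62 ± 0.28, adjusted p = 0.000101), Pxdn, the peroxidase that crosslinks collagen IV (-1.96 ± 0.22, adjusted p = 0.000611), Tinagl1 (-1.59 ± 0.29, adjusted p = 0.00649) and Col4a1, a chain of the collagen IV network that nidogens bind (-1.10 ± 0.22, adjusted p = 0.00925). In uninjured Gli1+ cells Col4a6 had 2.49 CPM in replicate 1 and 101 CPM in replicate 2, the library with the mesothelial marker sum of 9302 CPM. The part of cholangiocyte and mesothelial RNA in the levels of the basement membrane genes was not tested. In uninjured liver 7 of the 18 genes were higher and 4 lower, where 8.06% of all genes were higher and 3.02% lower. After BDL 3 of the 18 were higher and 2 lower, where 4.44% of all genes were higher and 2.36% lower. With a library left out, the count was 6 to 9 higher and 3 to 5 lower over both conditions, and 5 to 7 higher and 2 to 4 lower in uninjured liver. Without any 1 of the BDL libraries the count after BDL was 0 to 1 higher and 1 lower. In both BDL responses and in their difference, 0 genes of these 3 lists were called by the main limma fit. DESeq2 called 5 basement membrane genes and 2 receptors higher and 1 dystroglycan enzyme lower in the stellate response, among 1006 of 15489 genes. In the Gli1+ response it called 2 basement membrane genes and 1 receptor higher, among 406 of 15170 genes. For the difference it called 2 basement membrane genes and 1 receptor lower, among 389 of 15170 genes.

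The genes whose level over the 8 libraries was most like that of a laminin or nidogen gene were ranked by Pearson's r of log2(CPM + 1) among 10297 genes with a mean of at least 10 CPM. The libraries share their groups and depth, so r is given as a description without a test. Nearest to Lama4 were Ptgr1 (r = 0.985), Magi1 (0.983) and Plscr3 (0.983). Nearest to Lama5 were Atf2 (0.990), Nradd (0.983) and Thsd4 (0.982). Lama2, which did not part the populations, was nearest to Snrnp200 (0.953), Herpud2 (0.930) and Dexi (0.912). For Nid1 they were Epb41l2 (0.949), Nhsl2 (0.943) and Ncoa7 (0.942), and for Nid2 Slc12a4 (0.952), Tmem178 (0.926) and Tcta (0.918).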

How the data were processed

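The deposited values were CPM, in a column named normalized counts per the file headers, and each library summed to 1000000 over 30395 genes. Per the submitters' processing notes, which give no roles, FastQC, STAR 2.5.2b, featureCounts, DESeq2 and mm10 were used. Not given in the sources used here are the annotation release, the strand setting and how reads matching several genes were counted. Whole reads were recovered from the steps of the CPM values, 100.0% of which came out whole within 0.1 read. Identifiers were matched to GENCODE vM21 (GRCm38, also called mm10) for 30214 genes.

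limma-trend (limma 3.58.1, R 4.3.3) was fitted to log2(CPM + 1) of 16446 genes that reached 1 CPM in 2 or more libraries, with 4 group means over all 8 libraries, 4 residual degrees of freedom and BH adjustment over all genes at 0.05. Fold changes on this scale understate changes of low genes. CPM has no scaling beyond the library total, and values are to be read against the median of all genes (0.32 in uninjured liver and 0.23 after BDL for Gli1+ against stellate cells, 0.14 and 0.09 after TMM scaling).

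Levels between genes were compared per kb of the union of annotated exons. Alternatives were pseudocounts of 0.1 and 5, no filter, TMM, edgeR 4.0.16 and DESeq2 1.42.0 on the recovered reads, a replicate block, the 4 libraries of a comparison alone, and each library left out. Outside the replicate block, replicate numbers were not used to pair libraries, and whether they mark shared animals is not given. Only the main limma fit was tested on simulated counts, for the comparisons within 1 condition or within 1 population. The genes changed there had a mean of at least 10 CPM. Intervals and floors (3 reads) cover counting error only, because PCR copies are not independent molecules. The members, lists, trimers and tests were chosen with earlier results of these data known. Named were the 10 members, the chains Lama1 and Lamc3, up to 4 called genes per direction of each partner list, and the 3 genes most like each of 5 members. The lists held 148 genes, 2 of which had no match by symbol.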

Additional observations from a re-analysis of the deposited data

How the results depend on the processing

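Over both conditions the 6 calls of Gli1+ against stellate cells held in all 7 alternative fits and all 8 fits without a library. Within uninjured liver the count of 5 called members was 2 without the filter, 3 with the replicate block and 2 with only the 4 libraries of that comparison, and 2 to 4 with a library left out. After BDL the count of 4 was 0 without the filter, 1 by edgeR, 7 with only the 4 libraries and 0 to 5 with a library left out. The stellate response to BDL had 0 called members, 2 by DESeq2 and 0 to 1 with a library left out. At 5 CPM per kb the trimer counts were 4 in Gli1+ cells after BDL, 2 in stellate cells after BDL and 2 in uninjured stellate cells. With a library left out, at the threshold of 1 CPM per kb used in the report, the counts were 6 to 9 in uninjured Gli1+ cells and 4 to 6 in uninjured stellate cells. The causes were not tested, beyond fewer libraries or more genes tested by construction.

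Over all genes, the uninjured comparison called 1822, against 810 without the filter, 2996 by DESeq2 and 474 with 4 libraries; the BDL comparison called 1118, against 621 by edgeR and 1889 with 4 libraries. The stellate response called 37, against 97 with a pseudocount of 0.1, 19 with 5, 6 without the filter, 23 with TMM, 62 by edgeR, 1006 by DESeq2, 18 with the replicate block and 0 with 4 libraries. The Gli1+ response called 0, against 49 with a pseudocount of 5, 127 without the filter and 406 by DESeq2. With a library left out these counts were 1022 to 1808 in uninjured liver, 145 to 1375 after BDL, 0 to 219 for the stellate response and 0 to 5 for the Gli1+ response. The BDL count was 145 and 351 without Gli1+ replicates 1 and 2 of BDL liver and 176 and 224 without stellate replicates 1 and 2. Over both conditions it was 2774, and 1470 to 3162 with a library left out. Deviations of same-numbered libraries correlated at -0.112 to 0.112 between groups. The labels name no animals, so these correlations cannot show whether libraries of the same number were paired. The 2 libraries per group limit calls to large changes.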
